A study of Mus musculus with 6 samples.

Results

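The miR-30 family was followed in kidneys from males of the inbred mouse strain C57BL/6, aged 20 months (aged, 3 arrays) or 2 months (young, 3 arrays). The labels record no treatment or altered allele in either group. The members were chosen by name and are 7 mature microRNAs (miRNAs) of the 1247 mouse miRNAs with probes on the array. They are the 5p arms mmu-miR-30a-5p, mmu-miR-30b-5p, mmu-miR-30c-5p, mmu-miR-30d-5p and mmu-miR-30e-5p and the 3p arms mmu-miR-30a-3p and mmu-miR-30e-3p, written below without the species prefix. The labels number the arrays of an age as replicates of total RNA from kidney and do not say whether they came from separate animals or RNA preparations. The p-values therefore cover only the spread between these arrays, which may be technical.

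miRNAs are cut as a pair of arms, 5p and 3p, from a hairpin precursor. A loaded arm represses mRNAs mainly through pairing of its seed, bases 2 to 8 from its 5′ end. The miR-30 family is known to be abundant in kidney epithelium. In podocytes, the filtering cells of the glomerulus, its members are known to restrain Notch and calcium-calcineurin signalling, and in epithelial cells they are known to repress drivers of the mesenchymal state such as Snai1. Whole-kidney RNA mixes podocytes, tubules, vessels and blood, so the cell type behind a signal was not measured here, and fewer cells of a type and less RNA per cell cannot be told apart.

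RefSeq, on GRCm38.p6, gave sequences for 5 of the 7 members, all but miR-30b-5p and miR-30d-5p. The family is defined by its seeds, which the sequences below show in capitals. The seed bears mainly on which mRNAs members share as targets, and the whole sequence on how alike the probes' targets are.
miR-30a-5p: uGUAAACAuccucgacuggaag
miR-30e-5p: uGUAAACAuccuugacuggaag
miR-30c-5p: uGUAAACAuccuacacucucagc
miR-30a-3p: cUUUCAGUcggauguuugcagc
miR-30e-3p: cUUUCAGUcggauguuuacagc

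The 5p arms listed share the seed GUAAACA, which 4 of the 1679 mature mouse miRNA names in the RefSeq table carry (0.238%), the other being miR-384-5p. The 3p arms share UUUCAGU, which miR-30a-3p and miR-30e-3p alone carry in that table (2 of 1679, 0.119%). The table gave no sequence for the arms of Mir30b and Mir30d, so both counts leave those arms out and may be too low. Counted from 1 at the 5′ end, miR-30a-5p and miR-30e-5p differ by 1 substitution, C13U, and miR-30a-3p and miR-30e-3p differ by 1, G18A. miR-30c-5p differs from miR-30a-5p at 5 of the 22 positions compared, all outside the seed. Signal on a probe for one of these close paralogues can therefore come partly from another, and whether it did was not tested.

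The hairpins lie in pairs. Mir30a (chr1:23272269-23272339, plus strand, GRCm38.p6) neighbours Mir30c-2 (chr1:23291701-23291784, plus strand), and no other RefSeq gene span covers either. Mir30e (chr4:120772606-120772697, minus strand) neighbours Mir30c-1 (chr4:120769534-120769622, minus strand), both within the span of the protein-coding gene Nfyc, which encodes a subunit of the transcription factor NF-Y. Mir30b and Mir30d neighbour each other on chromosome 15. miR-30c-5p has the same sequence from Mir30c-1 and Mir30c-2, so its signal sums both loci. The hairpins whose arms were both followed are shown with their mature arms in capitals, 5p before 3p.
Mir30a: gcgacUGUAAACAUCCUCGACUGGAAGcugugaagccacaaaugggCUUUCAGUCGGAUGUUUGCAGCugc
Mir30e: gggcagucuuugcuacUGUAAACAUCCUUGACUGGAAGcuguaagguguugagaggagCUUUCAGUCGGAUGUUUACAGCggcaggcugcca

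Signal is given as log2 of a miRNA's background-corrected intensity, summed over its probes and divided by the array's 75th percentile of probes well above background on all 6 arrays, so that 0 is that percentile. The percentile itself was 1171 to 2054 intensity units on aged arrays and 1191 to 1415 on young arrays. The number of arrays limits the precision. On the aged arrays 177 to 206 miRNAs were well above background, against 193 to 209 on the young arrays. Aged arrays 2 and 3 lay in slide row 2, and aged array 1 with all young arrays in row 1. Over the 193 miRNAs tested, aged arrays correlated with each other at 0.972 to 0.989, against 0.998 among young arrays. Unscaled, the summed intensity was 10787 to 19071 units on aged arrays and 10599 to 13182 on young arrays for miR-30a-5p, and 285 to 539.7 on aged arrays and 318 to 382 on young arrays for miR-30e-3p.

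None of the 7 miR-30 members passed the test for an age difference, and each was well above background on all 6 arrays. Their differences of aged minus young means ran from -0.15 to 0.09 (log2), with a standard error of a difference (limma SE) of 0.08 to 0.09. The 95% intervals allow at most a 1.23-fold higher and a 0.777-fold level in aged kidney for any member under this scaling. These limits widen with the scaling, to a 2.14-fold higher level of miR-30c-5p with the percentile over all probes and a 0.693-fold level of miR-30b-5p without scaling. By limma with Benjamini-Hochberg adjustment over all 193 tested miRNAs, 0 of the 7 members passed, where 7.77% of the tested miRNAs did. At an unadjusted p under 0.05 the count was also 0 of 7, where it was 25.4% over all.

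Of the 5p arms, miR-30a-5p, known as the main guide strand of its hairpin, had log2 signals of 3.20, 3.22 and 3.35 on the aged arrays, against 3.22, 3.14 and 3.32 on the young arrays. The values interleaved, with the highest of the 6 on an aged and the lowest on a young array. Its difference was 0.03 ± 0.08 (log2 ± SE, n = 3 per group, 95% interval -0.18 to 0.23, limma adjusted p = 0.847).

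miR-30e-5p, which differs from miR-30a-5p at 1 base, stood at 1.41, 1.55 and 1.55 in aged kidney, against 1.54, 1.48 and 1.60 in young kidney. Aged array 1 was the lowest of the 6, and the others lay within the young range. The difference was -0.04 ± 0.08 (95% interval -0.23 to 0.16, limma adjusted p = 0.805).

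miR-30c-5p, the member encoded at both Mir30c loci, had signals of 1.52, 1.37 and 1.55 on the aged arrays, against 1.36, 1.32 and 1.49 on the young arrays. Aged arrays 1 and 3 lay above all young arrays and aged array 2 within their range. Its difference was 0.09 ± 0.09 (95% interval -0.12 to 0.30, limma adjusted p = 0.531).

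miR-30b-5p, encoded beside miR-30d, had signals of 0.30, 0.20 and 0.10 on the aged arrays, against 0.34, 0.29 and 0.42 on the young arrays. Aged arrays 2 and 3 lay below every young array, and aged array 1 lay between young values. The difference was -0.15 ± 0.08 (95% interval -0.35 to 0.05, limma adjusted p = 0.318).

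miR-30d-5p stood at -1.07, -1.30 and -1.05 in aged kidney, against -1.01, -0.99 and -0.98 in young kidney. It was the 1 member of 7 whose groups did not overlap, with every aged value below every young value, where 30.6% of all tested miRNAs did not overlap (20.2% with lower and 10.4% with higher aged values). The young values spread little (SD 0.02), against an SD of 0.14 in aged kidney, where array 2 was the lowest. The difference was -0.15 ± 0.09 (95% interval -0.36 to 0.07, limma adjusted p = 0.346), and -0.07 without aged array 2.

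Of the 3p arms, miR-30a-3p had signals of -1.29, -1.21 and -1.09 on the aged arrays, against -1.25, -1.36 and -1.19 on the young arrays. The groups overlapped, and the difference was 0.07 ± 0.09 (95% interval -0.14 to 0.28, limma adjusted p = 0.641). miR-30e-3p stood at -2.04, -1.93 and -1.87 in aged kidney, against -1.89, -1.92 and -1.79 in young kidney. Aged arrays 1 and 2 were the lowest of the 6, with aged array 3 within the young range, and the difference was -0.08 ± 0.08 (95% interval -0.27 to 0.12, limma adjusted p = 0.561). Levels of different members are not ranked here, since each probe binds its own target with its own efficiency.

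**Figure D1:**
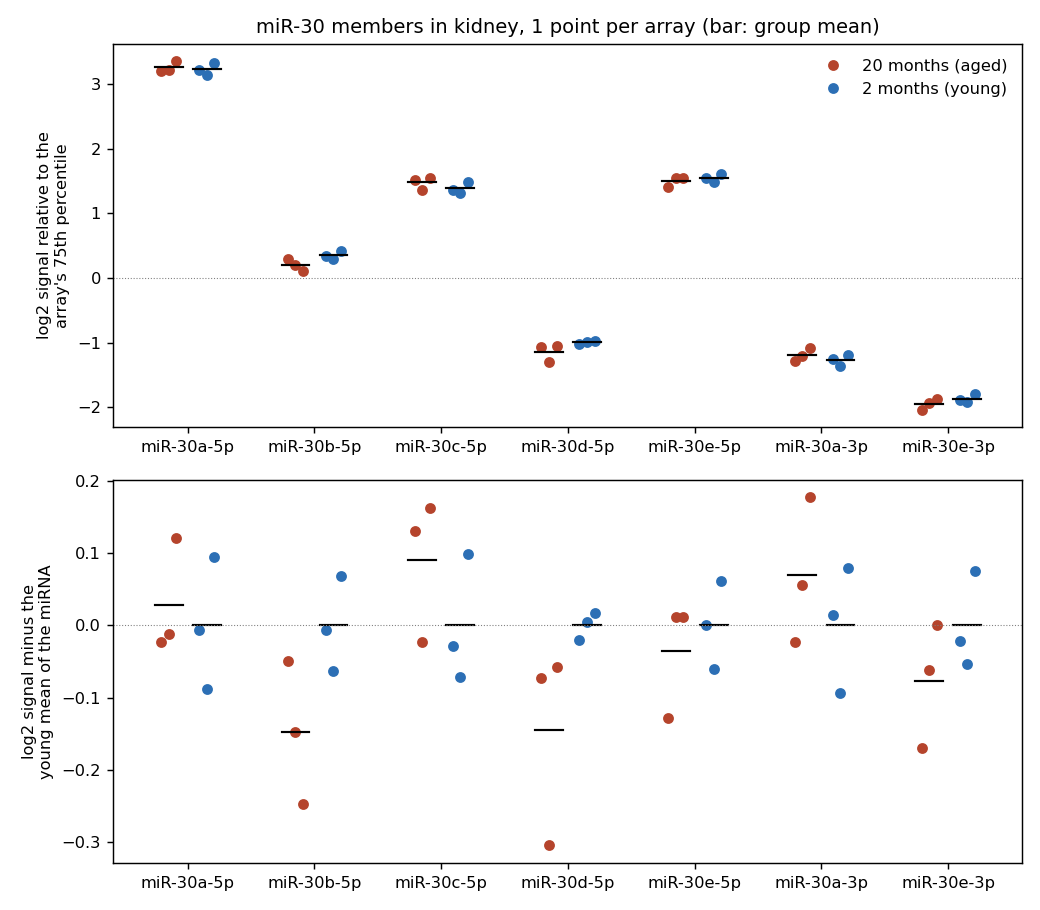
Signal of the 7 miR-30 members on each array, as log2 relative to the array's 75th percentile (upper panel) and as log2 minus the young mean of the same miRNA (lower panel), with aged arrays in red at the left, young arrays in blue at the right and bars for group means. The groups overlap for 6 members, and for miR-30d-5p the 3 aged points lie below the 3 young ones.

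The members were steadier over the 6 arrays than most tested miRNAs. The 193 tested include dim miRNAs near the detection limit, whereas every member was well above background. No comparison was made among miRNAs of like signal, so steadiness is not shown to be particular to the family. The range from the lowest to the highest array was 0.19 for miR-30e-5p and 0.32 for miR-30d-5p, the smallest and the largest of the 7. Of all tested miRNAs, 94.8% had a larger range than miR-30e-5p and 67.9% had a larger one than miR-30d-5p. The median size of the age difference, ignoring its sign, was 0.08 over the 7 members and 0.17 over the 193 tested miRNAs. With signs kept, the medians were -0.04 and -0.08. Of the 7 members 3 had positive and 4 negative differences, against 65 positive and 128 negative among all tested miRNAs.

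The 7 members were read by 15 probes of 280 spots in all, and every probe was well above background on all 6 arrays. The probes of a member gave similar age differences, within 0.06 of each other for 6 members. The 3 probes of miR-30a-5p stood at 0.03, 0.02 and 0.05, from the brightest to the dimmest, and the 2 probes of miR-30a-3p both at 0.07. Those of miR-30b-5p stood at -0.16 and -0.09, those of miR-30d-5p at -0.16 and -0.13, and those of miR-30c-5p at 0.10 and 0.07. For miR-30d-5p both probes separated the ages, and for miR-30b-5p the brighter probe did, 3 of the 15 probes in all and each with lower aged values. Among the 315 probes used for scaling, 29.5% separated the ages (19.7% with lower aged values). miR-30e-5p had -0.04 on its brighter probe and 0.002 on the other. The probes of miR-30e-3p disagreed in sign, at -0.11 on the brighter one, which carried 76.9% of the signal, and 0.02 on the other.

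**Figure D2:**
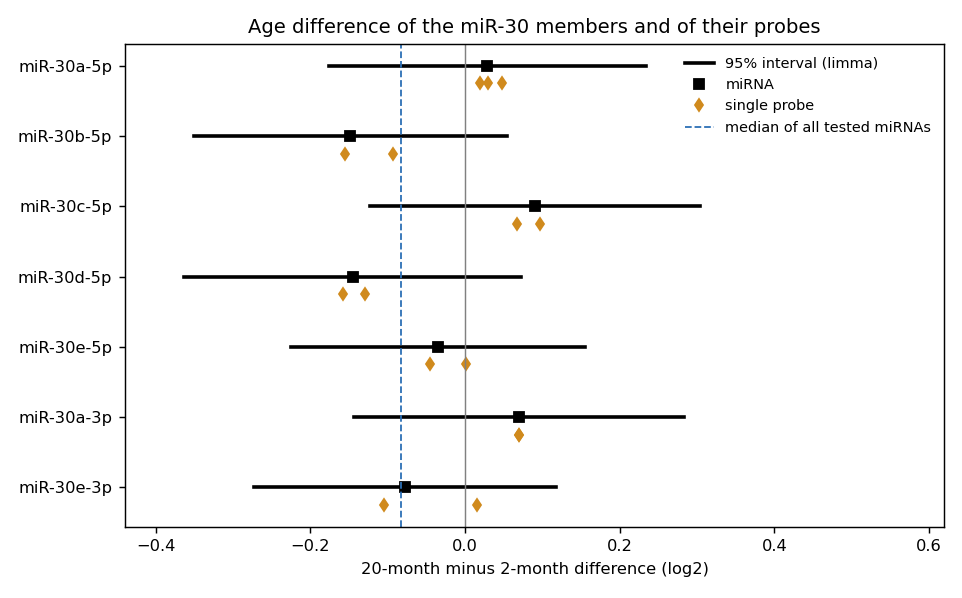
Difference of the 20-month minus the 2-month mean (log2) of each member (square) with its 95% limma interval (line), and of each of its probes (diamonds); the dashed line is the median of all 193 tested miRNAs, at -0.08. All 7 intervals include 0, and the probes lie close to their miRNA except for miR-30e-3p, whose diamonds stand at -0.11 and 0.02.

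The signs of these small differences depended on how arrays were scaled to each other. Against the main scaling, the median of all tested miRNAs shifted by 0.11 in the authors' processed values, by 0.14 when arrays were divided by the median of detected probes, by 0.20 when they were left unscaled and by 0.41 when the percentile was taken over all probes. Relative to the median of all tested miRNAs, miR-30c-5p stood at 0.17, miR-30a-3p at 0.15, miR-30a-5p at 0.11, miR-30e-5p at 0.05, miR-30e-3p at 0.01, miR-30d-5p at -0.06 and miR-30b-5p at -0.06. Under none of the 5 other scalings or sources plotted did a member pass the threshold. The 95% interval of miR-30c-5p lay above 0 with the median of detected probes (0.04 to 0.42, limma adjusted p = 0.136), in the authors' processed values (0.02 to 0.39, limma adjusted p = 0.222) and under quantile normalization (0.01 to 0.29, limma adjusted p = 0.156). With slide row as a block, the comparison rests on aged array 1 against the young arrays of its row, and the differences were 0.13 for miR-30c-5p, -0.02 for miR-30a-5p and miR-30a-3p, -0.05 for miR-30b-5p, -0.07 for miR-30d-5p, -0.13 for miR-30e-5p and -0.17 for miR-30e-3p (limma adjusted p from 0.548 to 0.953).

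**Figure D3:**
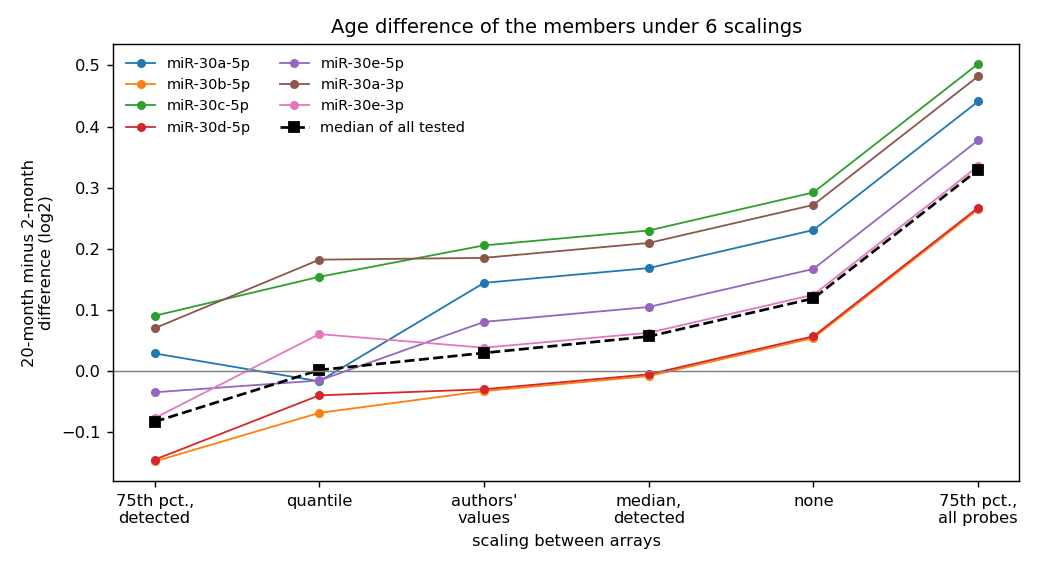
Age difference (log2, 20-month minus 2-month) of each member under 6 scalings between arrays, with the median of all tested miRNAs as black squares. The lines follow the median, from -0.08 at the left to 0.33 at the right, except under quantile normalization. There miR-30a-5p and miR-30e-5p lie just below the median (-0.02 each), and miR-30e-3p lies further above it (0.06). The lowest throughout are miR-30b-5p and miR-30d-5p.

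Ratios between members within an array do not depend on the scaling factor of that array. Of the 10 pairs of 5p members, 2 had ratios that did not overlap between ages, where 39.6% of the 18528 pairs of tested miRNAs did not overlap, a larger share than among the members. Both involved miR-30c-5p. The log2 ratio of miR-30c-5p over miR-30d-5p was 2.59, 2.67 and 2.60 on the aged arrays, against 2.38, 2.31 and 2.47 on the young arrays. That of miR-30b-5p over miR-30c-5p was -1.22, -1.17 and -1.45 in aged kidney, against -1.02, -1.03 and -1.07 in young kidney. The age difference of miR-30c-5p over miR-30d-5p, 0.24, was larger than the spread within aged kidney (0.08) and within young kidney (0.16). That of miR-30b-5p over miR-30c-5p, -0.24, was smaller in size than the spread within aged kidney (0.29), against a spread of 0.05 within young kidney.

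miR-30b-5p and miR-30d-5p, whose hairpins neighbour each other, had nearly the same mean ratio at both ages. Their log2 ratio was 1.37, 1.50 and 1.15 on the aged arrays, against 1.36, 1.28 and 1.39 on the young arrays, a difference of -0.003 with aged values on both sides of the young ones. For the neighbours miR-30a-5p and miR-30c-5p the ratios were 1.68, 1.85 and 1.80 in aged kidney, against 1.86, 1.82 and 1.83 in young kidney. Those of miR-30c-5p over miR-30e-5p, also neighbours, were 0.11, -0.19 and 0.0003 in aged kidney, against -0.18, -0.16 and -0.11 in young kidney. Both pairs overlapped between ages. miR-30a-5p over miR-30e-5p stood at 1.79, 1.66 and 1.80 on the aged arrays, against 1.68, 1.66 and 1.72 on the young arrays, also with overlap.

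The 3p arms of Mir30a and Mir30e form 1 pair, and its ratios did not overlap between ages, set against the same 39.6%. The log2 ratio of miR-30a-3p over miR-30e-3p was 0.75, 0.72 and 0.78 on the aged arrays, against 0.64, 0.56 and 0.61 on the young arrays. The difference of 0.15 was about the size of the disagreement between the 2 probes of miR-30e-3p (0.12). Over 6 other ways of processing, chosen after the data were seen, this ratio kept its sign (0.11 to 0.18) and was free of overlap in 5, the exception being quantile normalization. The ratio of miR-30b-5p over miR-30c-5p was free of overlap in 5 of 6 (-0.25 to -0.17), all but the one with outlier spots kept. That of miR-30c-5p over miR-30d-5p was so in 4 of 6 (0.19 to 0.25), overlapping under quantile normalization and with outlier spots kept.

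**Figure D4:**
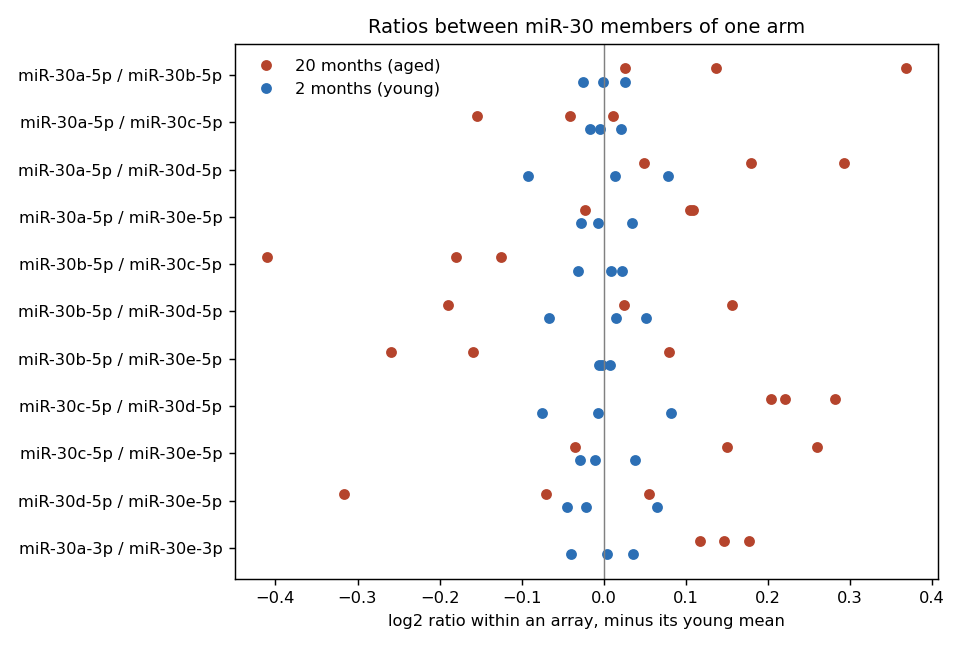
Log2 ratio of each pair of members of an arm within each array, less its mean over the young arrays, with aged arrays in red above and young arrays in blue below. Red and blue points are apart for miR-30b-5p over miR-30c-5p, miR-30c-5p over miR-30d-5p and miR-30a-3p over miR-30e-3p, and mixed or touching for the other 8 pairs.

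The 5p to 3p ratio compares arms cut from 1 hairpin and is also free of the array's scaling factor. For miR-30a the log2 ratio of 5p to 3p signal was 4.49, 4.42 and 4.44 on the aged arrays, against 4.47, 4.50 and 4.51 on the young arrays. Aged arrays 2 and 3 lay below every young array and aged array 1 among them. The means were 4.45 ± 0.04 in aged kidney and 4.49 ± 0.02 in young kidney (SD, n = 3 each), a difference of -0.04 (exact two-sided permutation p = 0.2, where 3 arrays against 3 cannot give less than 0.1). Aged arrays 2 and 3 were also those in slide row 2. With slide row as a block, which leaves aged array 1 against the young arrays, the difference was -0.0001, and 0.04 for miR-30e. The part of slide row was not tested.

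For miR-30e the log2 ratio was 3.45, 3.48 and 3.42 on the aged arrays, against 3.43, 3.40 and 3.39 on the young arrays. Aged arrays 1 and 2 lay above every young array and aged array 3 within their range. The means were 3.45 ± 0.03 in aged kidney and 3.41 ± 0.02 in young kidney (SD, n = 3 each), a difference of 0.04 (exact two-sided permutation p = 0.2). In signal the 5p arm of miR-30a was 21.9-fold its 3p arm in aged kidney and 22.5-fold in young kidney, and that of miR-30e was 10.9-fold in aged kidney and 10.6-fold in young kidney. For miR-30a the fold depended on how its probes were combined, at 14.4-fold in aged kidney and 14.8-fold in young kidney in the authors' processed values, and 12.9-fold in aged kidney and 13.2-fold in young kidney with the mean of log2 over probes. With another background correction (normexp), the fold of miR-30a was 17.0 in aged and in young kidney. That of miR-30e was then 7.56 in aged kidney and 7.28 in young kidney. These folds compare probes that differ in binding, so they are no ratios of molecules.

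Quantile normalization, which is not one factor per array and was added for these ratios after the data were seen, moved both. The difference became -0.20 for miR-30a and turned to -0.08 for miR-30e, each with no overlap between ages (exact two-sided permutation p = 0.1, the smallest possible). In the limma fit over hairpins the adjusted p there was 0.168 for miR-30a and 0.616 for miR-30e.

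Both arms were tested for 12 hairpins on the array. In a limma fit over their 5p to 3p ratios under the main scaling, added after the data were seen, miR-30a stood at -0.04 ± 0.04 (95% interval -0.13 to 0.05) and miR-30e at 0.04 ± 0.04 (95% interval -0.05 to 0.13), with an adjusted p of 0.512 for both. Of the 12 hairpins 0 passed in that fit (0%), and the ratios of 1 hairpin, miR-142, did not overlap (8.33%).

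**Figure D5:**
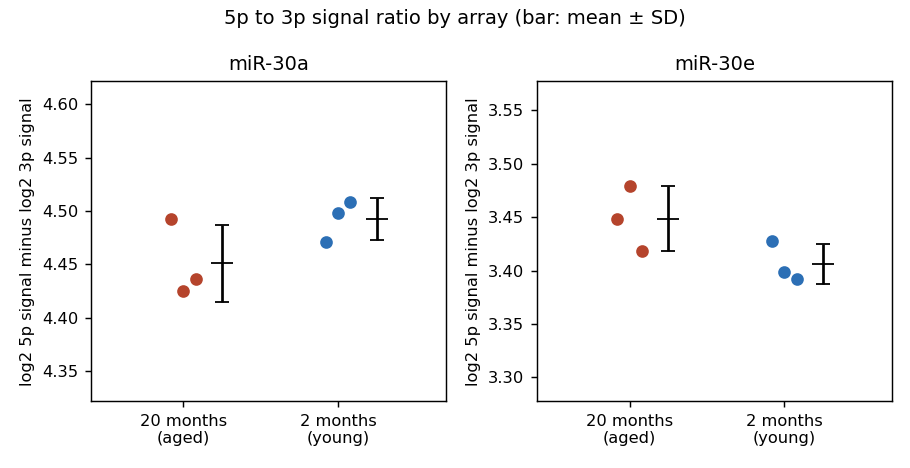
Log2 5p signal minus log2 3p signal of miR-30a (left panel) and miR-30e (right panel) on each array, with aged arrays left of young arrays in each panel and bars for the mean ± SD. Both axes span 0.3 log2 units; the group means differ by -0.04 for miR-30a and by 0.04 for miR-30e, and the points overlap in both.

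The other arms of the hairpins were mostly below detection. The 3p arms of the Mir30c loci differ at 3 of 22 positions, so they can tell apart loci that miR-30c-5p cannot, and are shown with seeds in capitals.
miR-30c-2-3p: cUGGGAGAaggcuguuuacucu
miR-30c-1-3p: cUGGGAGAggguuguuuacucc
miR-30c-2-3p, from the locus beside Mir30a, was well above background on all 6 arrays, with log2 signals of -3.27, -3.21 and -3.03 on the aged arrays, against -3.16, -3.23 and -3.18 on the young arrays. Its difference was 0.02 ± 0.09 (95% interval -0.19 to 0.23, limma adjusted p = 0.9). miR-30c-1-3p, from the Nfyc locus, was not well above background on any array, nor were miR-30b-3p and miR-30d-3p. The same held for miR-30f, annotated on the strand opposite to Mir30e, and for miR-384-5p, the other miRNA with the seed of the miR-30 5p arms. Both were at the floor of -5.22 on every array.

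The tested miRNAs whose course over the 6 arrays was nearest to the mean course of the 5p members were miR-195a-5p, miR-690 and miR-497-5p. Likeness was the root mean square difference of log2 signals, each centred on its own mean over the 6 arrays, and these stood at 0.04 each, against a median of 0.15 over 186 miRNAs. Nearest to the 3p members were miR-24-3p (0.02), miR-20a-5p (0.02) and miR-23b-3p (0.02), again against a median of 0.15. Arrays share their scaling, so miRNAs that vary little lie near each other by this measure.

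Other miRNAs linked to the cells where the miR-30 family is known to act were read beside it. Of 7 miRNAs linked to podocytes 5 were tested, 0 passed by limma in either direction and 0 reached an unadjusted p under 0.05, and the median difference was 0.02. Among them miR-193a-5p stood at 0.31 ± 0.15 and miR-26a-5p at 0.15 ± 0.09. miR-135a-5p and miR-135b-5p were not well above background on any array. Of 13 miRNAs of tubule epithelium 10 were tested, 1 fell (miR-141-3p, at -0.38 ± 0.08, limma adjusted p = 0.0415) and 0 rose, with a median of -0.14. The next smallest p there was that of miR-200c-3p, at -0.33 ± 0.11 (limma adjusted p = 0.1). miR-194-5p differed in the other direction, at 0.28 ± 0.09 (limma adjusted p = 0.104), with every aged value above every young value, and miR-192-5p stood at 0.14 ± 0.11. Over all tested miRNAs 4.15% rose, 3.63% fell and the median was -0.08.

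Markers of other cells in whole kidney were read as sums of scaled linear signal, which were not tested. All 193 tested miRNAs summed to 469 to 566 on aged arrays, against 510 to 528 on young arrays. The 4 erythroid miRNAs summed to 6.40 to 7.20 in aged kidney, against 8.40 to 9.42 in young kidney. That sum was mostly miR-451a, with log2 means of 2.69 in aged and 3.03 in young kidney. miR-144-3p had log2 means of -1.90 in aged and -1.18 in young kidney. The 5 leukocyte miRNAs summed to 0.754 to 0.945, against 0.592 to 0.681, and the 6 of smooth muscle and stroma to 2.89 to 3.13, against 2.47 to 2.62, aged before young in both. The podocyte-linked list summed to 15.2 to 16.9 in aged kidney, against 14.7 to 16.1 in young kidney. Most of its signal came from miR-26a-5p, miR-24-3p and miR-23b-3p (aged log2 means 2.79, 2.06 and 1.79), with miR-193a-5p at -4.07. The tubule epithelium list summed to 19.6 to 22.5 in aged kidney, against 20.6 to 23.4 in young kidney. Both lists overlapped between ages, and the sums do not count cells of a type. Members of the list of smooth muscle and stroma differed in both directions. Of its 6 miRNAs tested 2 rose, miR-199a-3p at 0.40 ± 0.09 and miR-199a-5p at 0.34 ± 0.06 (limma adjusted p = 0.0391 and 0.0258), and 0 fell. miR-199b-5p stood at 0.33 ± 0.08 and miR-214-3p at 0.30 ± 0.09, whereas miR-143-3p stood at -0.27 ± 0.09 (limma adjusted p = 0.12) and miR-145a-5p at -0.25 ± 0.09 (limma adjusted p = 0.149), both with every aged value below every young value. Of the 4 leukocyte and 3 erythroid miRNAs tested 0 passed by limma. In the leukocyte list miR-223-3p stood at 0.55 ± 0.13 (limma adjusted p = 0.051) and miR-142-3p at 0.46 ± 0.17 (limma adjusted p = 0.14). In the erythroid list miR-486-5p stood at -0.56 ± 0.14 and miR-451a at -0.34 ± 0.08 (limma adjusted p = 0.0528 for each). An unadjusted p under 0.05 was reached by 6 of 6 stromal, 2 of 4 leukocyte, 3 of 3 erythroid and 3 of 10 tubule miRNAs, where 25.4% of all tested miRNAs reached it. Of 2 endothelial miRNAs 1 was tested, miR-126-3p, at 0.08 ± 0.08, and the other was not well above background on any array. Of the organ markers, miR-122-5p of liver, miR-133a-3p and miR-208a-3p of muscle and heart and miR-9-5p of brain were not well above background on any array, miR-1a-3p was so on 2 arrays of each age, and miR-124-3p was so on the aged arrays alone. The part of these differences in the miR-30 values was not tested.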

How the data were processed

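Per the file headers, each deposited spot value is a fluorescence intensity that Feature Extraction 11.5.1.1 had already corrected for background, on arrays of design 046065, with no scaling from array to array. The authors' deposited table holds log2 values. They matched log2 of gene-level totals from the scanner software after subtraction of a constant specific to each array, and the sources used here do not say what that constant is.

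Outlier spots were left out and the rest averaged per probe. Each array was scaled to its 75th percentile, taken from 315 probes that were well above background throughout (over 50% of kept spots marked). Probes were summed per miRNA, floored at -5.22 (log2) and logged. Saturated spots numbered 0. Ages were compared for 193 miRNAs, those well above background on all 3 arrays of either age, by limma 3.58.1 (lmFit and eBayes) under R 4.3.3 at an adjusted p (Benjamini-Hochberg) under 0.05. Arrays were counted as separate replicates because the labels number them so. Within groups, 43.2 to 74.6% of probes differed beyond spot noise, as repeat hybridizations of one RNA also could. Normexp was run on median spot signals, since the files hold no mean. The limma step was tested on simulated data. Named miRNAs were the members, the other arms, the nearest courses and the 2 smallest p of each list; miR-142, miR-192-5p, miR-194-5p, miR-143-3p, miR-145a-5p, miR-199b-5p, miR-214-3p and organ markers were added after their values were seen. Members and lists were chosen with earlier results of these data known. miR-486-5p was read as miR-3107-5p, and figures were drawn with matplotlib 3.10.9.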

Additional observations from a re-analysis of the deposited data

How the results depend on the processing

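No miR-30 member passed the threshold under any of the 22 alternatives. miR-30c-5p kept its sign in all of them (0.01 to 0.50), and the other members did not. With the 75th percentile over all probes the values turned positive for miR-30b-5p (0.26), miR-30d-5p (0.27), miR-30e-3p (0.34) and miR-30e-5p (0.38), and without scaling likewise (0.054, 0.057, 0.12 and 0.17). miR-30e-3p and miR-30e-5p were also positive with the median of detected probes (0.062 and 0.10) and in the authors' values (0.038 and 0.080), and miR-30e-3p under quantile normalization (0.060). miR-30a-5p was negative under quantile normalization (-0.017), in the scanner's total signal (-0.012), with outlier spots kept (-0.000413), and, with miR-30a-3p, with slide row as a block or within row 1 (-0.023 for both). The cause was not tested. Leaving out each array in turn gave -0.018 to 0.076 for miR-30a-5p, -0.20 to -0.10 for miR-30b-5p, 0.05 to 0.15 for miR-30c-5p, -0.19 to -0.07 for miR-30d-5p, -0.066 to 0.012 for miR-30e-5p, 0.02 to 0.12 for miR-30a-3p and -0.12 to -0.03 for miR-30e-3p. The 5p to 3p differences were -0.06 to -0.0001 for miR-30a and 0.02 to 0.06 for miR-30e under all alternatives run except quantile normalization. Under quantile normalization, chosen after seeing the data, they were -0.20 and -0.076, the second with its sign turned.

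Replicate numbers did not pair the arrays (correlations of deviations 0.12, -0.58 and 0.31). With a replicate block 3 miRNAs passed, none of them a member, with miR-30b-5p and miR-30d-5p at a limma adjusted p of 0.36. Of all tested miRNAs 8 were higher and 7 lower, against 18 and 3 with the median of detected probes, 13 and 1 under quantile normalization and 10 and 0 in the authors' values. The total of 15 became 2 without scaling, 4 with normexp, 8 in the scanner's total signal, 6 without a detection filter (where most miRNAs lay at the floor) and 5 with slide row as a block, and 5 to 39 with an array left out.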
